A study of Rattus norvegicus with 24 samples.

Results

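A set of 6 genes that brain microglia express was followed across 24 RNA-seq libraries of the rat medial prefrontal cortex. They are the 3 chains of complement C1q, C1qa (ENSRNOG00000012807), C1qb (ENSRNOG00000012749) and C1qc (ENSRNOG00000012804), and the 3 myeloid genes Aif1 (ENSRNOG00000000853), Itgam (ENSRNOG00000019728) and Cd68 (ENSRNOG00000037563). The members were chosen as genes of 1 cell type, by their identifiers, and all 6 of 6 were found among the 32883 genes of each deposited table. All 6 passed the filter on low counts. The tables give identifiers without names, and the gene names are those that came with the list of members. The RefSeq gene table used here held all 6 symbols but no Ensembl identifiers (0 of 47357 rows), so the pairing of name and identifier was not checked.

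The animals were Sprague Dawley rats at postnatal day 45, born after induction with oxytocin, a hypothalamic peptide that drives uterine contraction, or after saline. There were 4 labelled groups of 6 libraries each: oxytocin male, saline male, oxytocin female and saline female. RNA came from the prefrontal cortex of both hemispheres and was selected with oligo-dT, from tissue that was not sorted by cell type. Libraries held 15.9 to 24.3 M estimated reads, and those labelled oxytocin female were the shallowest on average, at 17.4 ± 0.888 M reads against 20.2 ± 2.18 M in saline female (SD, n = 6 each). For 24 of 24 libraries both sex and treatment in the deposited file's name were opposite to the sample's labels. Groups are named by the labels here. If the file names were right, every library called oxytocin would be saline, every library called male would be female, and each treatment difference below would change sign. The labels give no litter, so p-values treat animals as independent.

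Microglia are the resident macrophages of the brain. C1q is the recognition molecule of the classical complement pathway, and its A, B and C chains join into 1 hexameric protein that is made in the brain mainly by microglia. It tags synapses and debris, which leads to deposition of C3 fragments. Itgam encodes the alpha chain of complement receptor 3 (CD11b), which binds those fragments. Aif1 encodes the actin-bundling protein IBA1, the usual histological marker of microglia, and Cd68 encodes a membrane protein of lysosomes and endosomes that marks phagocytic cells. In bulk tissue, fewer microglia and less RNA per microglial cell cannot be told apart.

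The 3 chain genes lie side by side in the order C1qb, C1qc, C1qa on rat chromosome 5, with 0 other genes of the RefSeq table starting between C1qb and C1qa. Promoter windows in RefSeq (assembly GRCr8) were found for 4 of the 6 members by symbol. The 250 bases before the annotated start are printed for each member with a window. The sequences run 5′ to 3′ on the strand of the gene, and positions are in GRCr8. Capitals mark matches to GAGGAA, a purine-rich core bound by the myeloid factor PU.1, and to TGACTCA, the AP-1 site, each searched on both strands. C1qa is at chr5:154419934-154420183 on the minus strand, C1qb at chr5:154407828-154408077 on the minus strand, Itgam at chr1:192089342-192089591 on the plus strand and Cd68 at chr10:54882442-54882691 on the minus strand.
C1qa: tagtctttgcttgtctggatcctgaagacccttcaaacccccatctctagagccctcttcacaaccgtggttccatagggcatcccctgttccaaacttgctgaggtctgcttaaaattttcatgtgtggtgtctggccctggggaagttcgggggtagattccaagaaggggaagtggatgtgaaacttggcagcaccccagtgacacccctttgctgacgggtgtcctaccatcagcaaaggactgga
C1qb: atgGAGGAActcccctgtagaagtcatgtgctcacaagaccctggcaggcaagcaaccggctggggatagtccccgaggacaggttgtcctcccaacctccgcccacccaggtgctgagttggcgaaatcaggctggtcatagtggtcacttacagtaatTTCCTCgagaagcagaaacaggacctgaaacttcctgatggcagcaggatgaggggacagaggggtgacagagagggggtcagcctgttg
Itgam: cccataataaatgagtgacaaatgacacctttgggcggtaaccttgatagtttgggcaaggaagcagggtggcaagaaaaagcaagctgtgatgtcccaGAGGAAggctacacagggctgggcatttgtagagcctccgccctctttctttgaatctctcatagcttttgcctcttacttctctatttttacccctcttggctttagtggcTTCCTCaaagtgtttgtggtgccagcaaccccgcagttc
Cd68: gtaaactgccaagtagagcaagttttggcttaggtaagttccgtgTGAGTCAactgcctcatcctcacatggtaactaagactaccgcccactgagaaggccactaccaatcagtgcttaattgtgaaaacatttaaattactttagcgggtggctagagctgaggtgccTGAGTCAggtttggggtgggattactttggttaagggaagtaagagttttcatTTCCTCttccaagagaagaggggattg

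The C1qb window held GAGGAA 2 times, starting at positions −247 and −90 from the start, the Itgam window 2 times and the Cd68 window 1 time, while the C1qa window held none. Of 27457 windows of this length, 23.2% held GAGGAA, so its presence is common. TGACTCA was present 2 times in the Cd68 window and in none of the other 3, against 3.98% of all windows. The longer GAGGAAGT (2.04% of all windows), which contains GAGGAA, was in none of the 4, and neither were TATAAA (13.1%) and CACGTG (5.79%). These are matches of exact letters and say nothing of binding. Other purine-rich sequences were not searched, so a window without GAGGAA may hold a variant of it.

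Per length, C1qa and C1qb were the most abundant members, and C1qc stood beside Aif1. In deposited TPM, which divides reads by transcript length and library total, C1qa averaged 43.7 ± 5.01, C1qb 36.3 ± 4.07, Aif1 23.9 ± 3.05 and C1qc 23.6 ± 2.79 TPM (SD, n = 24 libraries). Itgam averaged 2.09 ± 0.623 TPM and Cd68 1.43 ± 0.810 TPM. Itgam and Cd68 were thus more than an order of magnitude below the other 4 members on this scale. Reads per library were 375 to 695 for C1qa, 300 to 569 for C1qb, 202 to 390 for C1qc and 116 to 197 for Aif1. They were fewer for Itgam, at 45 to 160, and fewest for Cd68, at 9 to 65. Counting error alone would give a coefficient of variation of 23.9% for Cd68 and 4.44% for C1qa.

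C1qc was the lowest of the 3 chains in every library. C1qa exceeded C1qc in all libraries, by 1.56-fold to 2.38-fold in TPM, and C1qb exceeded C1qc by 1.29-fold to 2.26-fold. C1qa was 0.970 to 1.38 times C1qb, and the only library in which C1qb was the higher was saline female 1. On the log2 scale the ratio of C1qa to C1qb was 0.27 ± 0.13, of C1qa to C1qc 0.89 ± 0.15 and of C1qb to C1qc 0.62 ± 0.17 (SD, n = 24). Counting error alone would give SDs of 0.10, 0.11 and 0.11 for these ratios. The geometric mean ratio of C1qa to C1qc was 1.91 in oxytocin male, 1.93 in saline male, 1.75 in oxytocin female and 1.83 in saline female libraries. Those gaps were smaller than the spread within the oxytocin female libraries, which ran from 1.56 to 2.18. The labelled groups overlapped in every one of the 3 ratios.

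**Figure D1:**
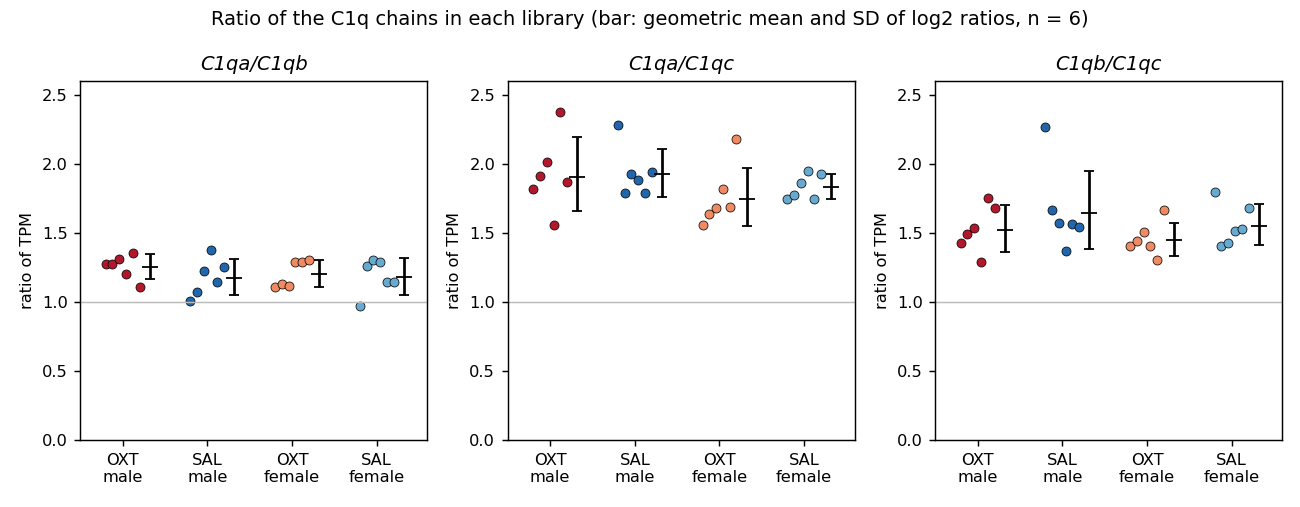
Ratio of deposited TPM between the C1q chains in each library (y axis, linear, no unit), by labelled group (x axis; OXT, oxytocin; SAL, saline). Points are libraries, bars the geometric mean and SD of 6. All points for C1qa/C1qc and C1qb/C1qc lie above 1, and C1qa/C1qb dips below 1 in a single saline female library, at 0.970.

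All 6 members were lower on average in libraries labelled oxytocin than in those labelled saline, in both labelled sexes. The differences were small for the C1q chains and Aif1 and larger for Itgam and Cd68. None of the 6 was called by edgeR's quasi-likelihood test, a call being made at a false discovery rate of 0.05 (Benjamini-Hochberg) over the 14930 genes tested. In labelled males 0 of 6 members were called (0.161% of all genes tested were), in labelled females 0 of 6 (0.00670%) and on average over the labelled sexes 0 of 6 (0.362%). Without adjustment, p was ≤ 0.05 for 0 of 6 members in males (11.2% of all genes), 3 of 6 in females (12.4%) and 5 of 6 on average (16.0%). All 6 log2 fold changes were below 0 in each of these comparisons, as they were for 50.4%, 49.5% and 50.0% of all genes. The median log2 fold change of the members was −0.14 in males, −0.24 in females and −0.19 on average, where that of all genes was 0.00 each time. The 6 genes come from the same libraries and partly vary together, so 6 of 6 are not 6 independent observations. In the average comparison DESeq2 called 2 members, C1qb and Cd68 (adjusted p = 0.0266 and 0.0452), and 2.52% of the genes it tested. The same 2 were called by edgeR without saline female 2 (adjusted p = 0.0422 and 0.0418), where 2.23% of all genes were called.

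**Figure D2:**
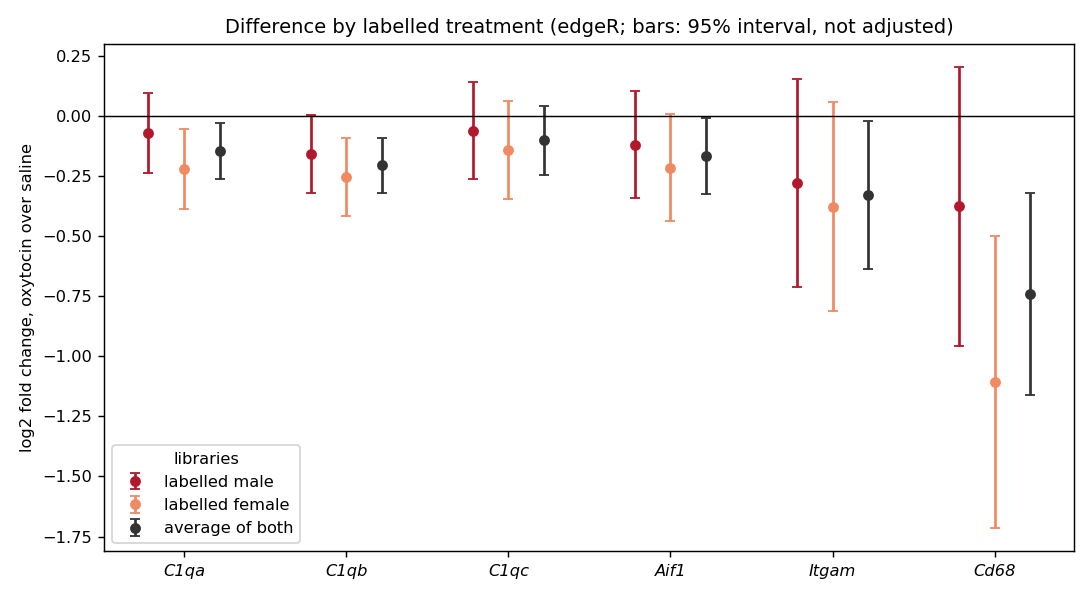
Log2 fold change of oxytocin over saline libraries (y axis, log2 of TMM-scaled counts) for each gene (x axis) in labelled males, labelled females and their average. Points are edgeR estimates from all 24 libraries, and bars are 95% intervals not adjusted for the number of genes. All 18 points lie below 0, from −0.06 for C1qc in males to −1.11 for Cd68 in females.

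C1qa encodes the A chain. In CPM (read counts scaled to library total with TMM factors), oxytocin male libraries ran from 21.9 over a median of 28.1 to 29.8 and saline male libraries from 22.8 over 27.4 to 33.3. Oxytocin female libraries ran from 23.6 over 23.9 to 24.7 and saline female libraries from 24.6 over 27.5 to 30.8. In males the groups overlapped almost wholly, while in females only the lowest saline library, at 24.6 CPM, fell within the oxytocin range. The log2 fold change was −0.07 (95% interval −0.24 to 0.10, adjusted p = 0.813) in males and −0.22 (−0.39 to −0.05, adjusted p = 0.288) in females. On average it was −0.15 (−0.26 to −0.03, adjusted p = 0.205). The 6 oxytocin female libraries were unusually alike, with a coefficient of variation of 1.75% where counting alone would give 4.90%; in the other groups it was 8.50% to 14.5%.

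C1qb encodes the B chain and had the lowest unadjusted p of the members on average. Oxytocin male libraries ran from 17.5 over a median of 22.5 to 25.7 CPM and saline male libraries from 20.5 over 25.1 to 26.7 CPM. Oxytocin female libraries ran from 18.9 over 20.4 to 22.4 CPM and saline female libraries from 21.7 over 24.3 to 27.6 CPM. In both labelled sexes the medians were apart and the ranges met, in females only between 21.7 and 22.4 CPM. The log2 fold change was −0.16 (95% interval −0.32 to 0.00, adjusted p = 0.455) in males and −0.25 (−0.42 to −0.09, adjusted p = 0.230) in females. On average the log2 fold change was −0.21, a change of −13.3% (SE 0.06 on the log2 scale, unadjusted p = 0.00102, adjusted p = 0.0786).

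C1qc encodes the C chain and differed least. Its medians were 15.2 CPM in oxytocin male (12.1 to 16.5), 15.4 in saline male (11.9 to 18.5), 15.05 in oxytocin female (11.8 to 16.04) and 15.8 CPM in saline female libraries (14.7 to 18.6). All 4 ranges overlapped. The average log2 fold change was −0.10 (95% interval −0.24 to 0.04, adjusted p = 0.495), or −15.6% to 2.88% as a percent change.

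Aif1 was lower in oxytocin libraries by an amount between those of C1qa and C1qb, on average over the labelled sexes. Its medians were 7.64 CPM in oxytocin male (5.58 to 8.43), 7.92 in saline male (6.48 to 9.97), 7.08 in oxytocin female (6.76 to 8.02) and 8.43 CPM in saline female libraries (6.91 to 10.02). Ranges overlapped in both labelled sexes. The log2 fold change was −0.12 (adjusted p = 0.751) in males, −0.21 (adjusted p = 0.417) in females and −0.17 (95% interval −0.32 to −0.01, adjusted p = 0.278) on average. Aif1 was also the member whose level went with sequencing depth. Within groups, its log2 CPM was lower in deeper libraries (Pearson r = −0.55, permutation p = 0.00596; Spearman rho = −0.54, p = 0.00787; n = 24). Without the 2 libraries of most extreme depth r was −0.35. For the other 5 members r lay between −0.30 and 0.02. The part of depth in the Aif1 difference was not tested.

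Itgam libraries were widely spread. Its medians were 3.96 CPM in oxytocin male (2.87 to 5.49), 4.74 in saline male (4.04 to 6.37), 3.82 in oxytocin female (3.31 to 4.51) and 4.82 CPM in saline female libraries (2.42 to 8.52). The saline female group held both the lowest and the highest of all 24 libraries, replicates 4 and 5. Its coefficient of variation was 44.6%, against 13.2% to 21.1% in the other 3 groups. The log2 fold change was −0.28 (adjusted p = 0.685) in males, −0.38 (adjusted p = 0.473) in females and −0.33 (95% interval −0.63 to −0.02, adjusted p = 0.275) on average. Without saline female 5 the value in females was −0.17.

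Cd68 showed the largest difference of the 6, on the fewest reads. In labelled males, oxytocin libraries ran from 0.824 over a median of 0.914 to 0.999 CPM and saline libraries from 0.874 over 1.17 to 1.49 CPM. In labelled females, oxytocin libraries ran from 0.542 over 0.601 to 0.762 CPM, or 9 to 13 reads, and saline libraries from 0.862 over 0.947 to 3.46 CPM, or 16 to 65 reads. All 6 oxytocin female libraries lay below all 6 saline female libraries. Groups that did not overlap, in either direction, were found for 0.730% of all genes tested. The males overlapped, as did the other 5 members in both labelled sexes (1.19% of all genes did not overlap in males). Saline female 5, at 3.46 CPM, stood far above the next library of its group at 1.09 CPM.

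With that library the log2 fold change of Cd68 in females was −1.11, a change of −53.5% (SE 0.30 on the log2 scale, unadjusted p = 0.000925, adjusted p = 0.188). Without it the log2 fold change was −0.59 (adjusted p = 0.270), and all 6 oxytocin libraries still lay below the remaining saline libraries. The fold change was −0.38 (adjusted p = 0.685) in males. On average it was −0.74 (95% interval −1.16 to −0.32, adjusted p = 0.0830), and −0.48 without saline female 5. Within the oxytocin female group the coefficient of variation was 12.99%, below the 30.4% that counting alone would give, so this group's own spread understates the error of so low a count.

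**Figure D3:**
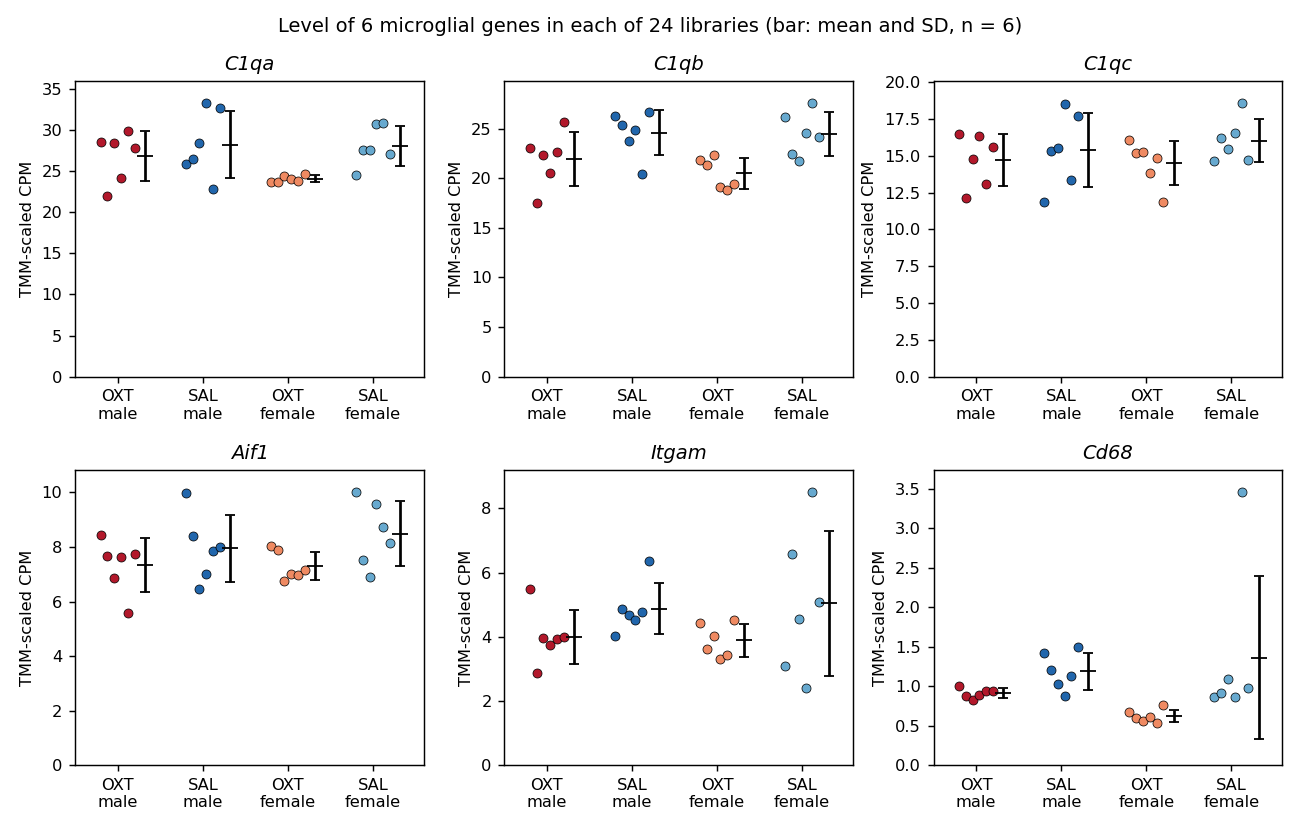
Level of each gene (y axis, TMM-scaled CPM, linear from 0) in the 24 libraries by labelled group (x axis; OXT, oxytocin; SAL, saline). Points are libraries and bars the mean and SD of 6. Oxytocin female libraries sit tightly together for C1qa (23.6 to 24.7 CPM) and lie wholly below saline female libraries for Cd68, where 1 saline library reaches 3.46 CPM.

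The order of the group means was the same at its lower end for all members: oxytocin female had the lowest mean TPM, oxytocin male the next, and the 2 saline groups the highest. By median it did not hold for C1qa, where oxytocin male libraries (45.5 TPM) lay above saline male libraries (44.4 TPM). The share of all genes with this order of means was not computed. The members come from the same libraries and are not independent observations of it. The saline female mean was above the saline male mean for Aif1, C1qc, Itgam and Cd68 and below it for C1qa and C1qb. For Itgam and Cd68 this order rested on saline female 5: in a comparison added after seeing the data, the saline female means without it were 2.03 TPM for Itgam and 1.31 TPM for Cd68, below the saline male means of 2.28 and 1.66 TPM. Most neighbours in this order were closer than their spread. Of 18 gaps between neighbouring group means, 2 exceeded the larger of the 2 SDs, both in Cd68: oxytocin female (0.874 ± 0.119 TPM) to oxytocin male (1.27 ± 0.0868), and oxytocin male to saline male (1.66 ± 0.293; SD, n = 6 each).

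Whether the treatment difference itself differed between the labelled sexes was tested as an interaction. All 6 members had the more negative fold change in labelled females, by 0.08 (C1qc) to 0.73 (Cd68) on the log2 scale. The share of all genes with this direction was not computed. The members come from the same libraries, so 6 of 6 are not 6 independent observations here either. None of the 6 was called by edgeR, with adjusted p between 0.751 and 0.970, with an unadjusted p ≤ 0.05 for 0 of 6 (7.29% of all genes), and DESeq2 and limma-voom called 0 of 6 as well. Among all genes tested 0% were called. Without saline female 5 the difference was 0.21 for Cd68 and turned to −0.11 for Itgam. Between the labelled sexes, averaged over treatment, C1qa, C1qb and Cd68 were higher and Aif1, C1qc and Itgam lower in males. None of these was called (0 of 6; 0.228% of all genes), the unadjusted p was ≤ 0.05 for 0 of 6 (9.99%), and DESeq2 and limma-voom called 0 of 6. The log2 fold changes ran from −0.05 for Aif1 to 0.18 for Cd68, with adjusted p between 0.656 and 0.995.

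The chains were then compared with each other across libraries, after removing each group's mean. All 3 pairs of C1q chains were positively correlated. For C1qa and C1qb Pearson's r was 0.56 (permutation p = 0.00456) and Spearman's rho 0.39 (p = 0.0617). For C1qa and C1qc r was 0.59 (permutation p = 0.00237) and rho 0.54 (p = 0.00683). For C1qb and C1qc r was 0.44 (permutation p = 0.0297) and rho 0.44 (p = 0.0321; n = 24 libraries in each). The p-values are two-sided and not adjusted, and 15 pairs were computed. A limma fit of all other genes on the level of 1 member, adjusted over 14929 genes, called none of these pairs. The smallest adjusted p among the chains was 0.961, and 0 genes (0%) were called as higher with the level of C1qa, C1qb or C1qc. Ranked among 14929 genes by r, C1qc was the 36th partner of C1qa and C1qa the 27th partner of C1qc. C1qb was the 56th partner of C1qa, and C1qa the 65th of C1qb. Between C1qb and C1qc the ranks were 379 and 281.

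The 3 pairs differed in how far they rested on single libraries. Without the 2 libraries farthest from the median of the first gene, r was 0.57 for C1qa and C1qb, 0.39 for C1qa and C1qc (permutation p = 0.0711) and 0.22 for C1qb and C1qc (p = 0.319). Leaving out oxytocin male 2, the lowest of its group in all 3 chains, gave 0.31 for C1qb and C1qc (permutation p = 0.149), and leaving out saline male 1 gave 0.61 (permutation p = 0.00205). Saline female 5 was the highest of its group in all 3 chains, as it was in Itgam and Cd68. Without it r was 0.39 for C1qb and C1qc (permutation p = 0.0683). With any 1 library left out, r ran from 0.42 to 0.65 for C1qa and C1qb (permutation p up to 0.0485) and from 0.51 to 0.69 for C1qa and C1qc (permutation p up to 0.0132). Within single groups of 6, C1qa and C1qc had r of 0.34 in oxytocin male, 0.85 in saline male, −0.74 in oxytocin female and 0.85 in saline female libraries (exact permutation p = 0.535, 0.0361, 0.0625 and 0.0181). The negative value came from the group in which C1qa hardly varied. C1qa and C1qb had r of 0.84, 0.63, −0.13 and 0.18 in the same order, and C1qb and C1qc 0.59, 0.27, 0.61 and 0.40. Counting error accounted for 19.0% of the within-group variance of C1qa, 24.6% of that of C1qb and 23.0% of that of C1qc.

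**Figure D4:**
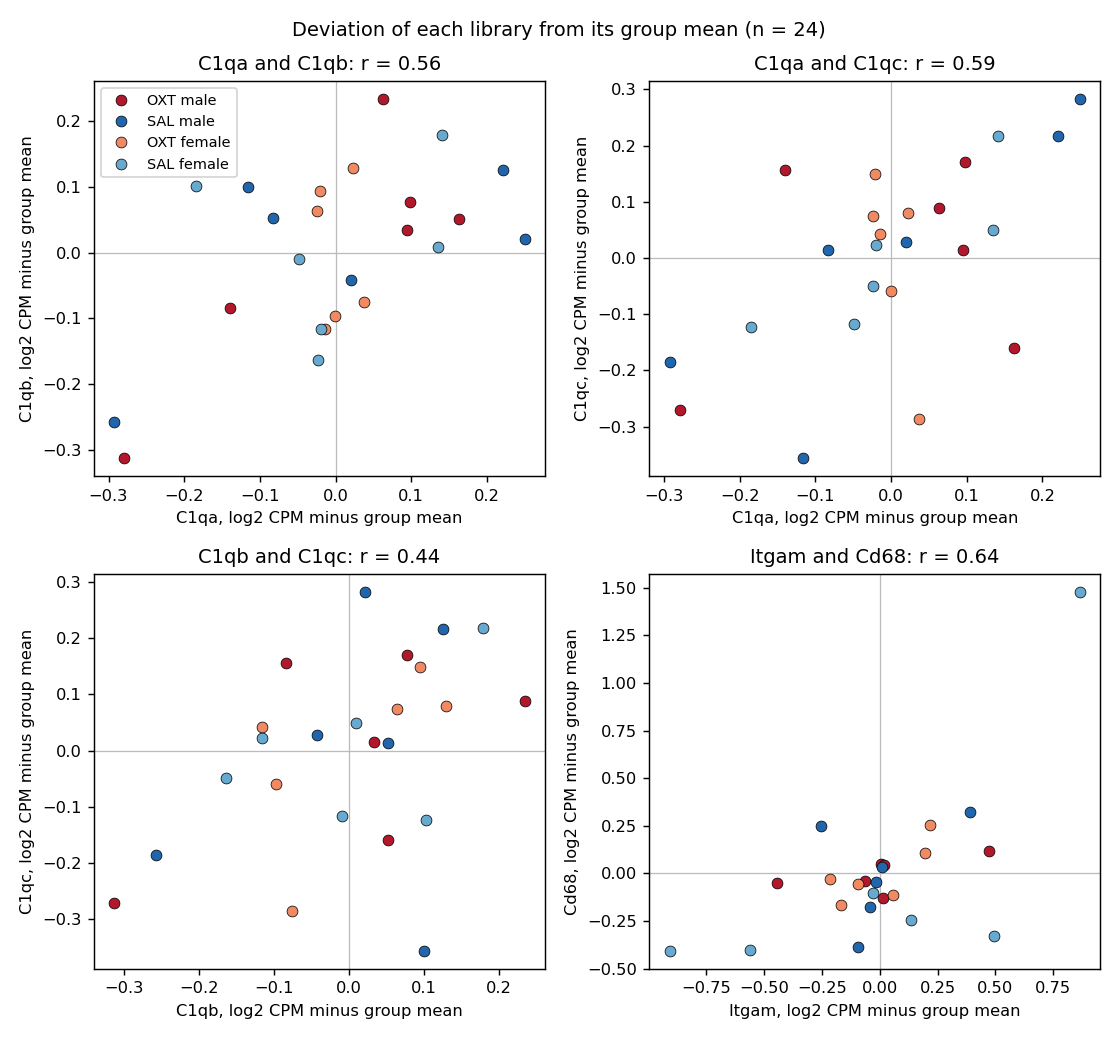
Deviation of each library from its group mean, in log2 CPM on both axes, for the 3 pairs of C1q chains and for Itgam with Cd68. Each point is 1 of 24 libraries, coloured by labelled group (OXT, oxytocin; SAL, saline). Pearson's r is 0.56, 0.59, 0.44 and 0.64, and in the last panel a single saline female library lies far to the upper right.

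Itgam and Cd68 had the highest r of the 15 pairs, at 0.64 (permutation p = 0.0016; rho = 0.46, p = 0.0242; n = 24). Cd68 was the 13th partner of Itgam by rank among all genes, and Itgam the 110th of Cd68. The limma fits gave adjusted p of 0.645 for Cd68 on the level of Itgam and 0.102 for Itgam on the level of Cd68. As higher with Itgam 0% of genes were called, and as higher with Cd68 0.275%. Saline female 5 was highest in both genes. Without it r was 0.40 (permutation p = 0.0565), and without the 2 libraries farthest from the median of Itgam it was 0.38. The sign was positive in each of the 4 groups, from 0.38 in saline male to 0.76 in oxytocin female libraries.

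Aif1 had r of either sign with the other members. Its r with C1qa was −0.31 (permutation p = 0.147), with C1qb 0.30 (p = 0.157; rho = 0.42, p = 0.0422), with C1qc −0.06 (p = 0.781), with Itgam −0.21 (p = 0.324) and with Cd68 0.16 (p = 0.438). With C1qa the sign was negative in each group, from −0.65 in oxytocin female to −0.01 in saline female libraries. It stayed negative with any 1 library left out (−0.38 to −0.21). Without the 2 libraries farthest from the median of Aif1, oxytocin male 5 and saline female 1, r with C1qa was −0.10 (permutation p = 0.655). In log2 of deposited TPM over all 24 libraries r with C1qa was −0.44 (permutation p = 0.0301). With the mean of the 3 chains r was −0.03, which put Aif1 at rank 8691 among the 14924 genes outside the members. No gene (0%) was called as higher with the level of Aif1. Itgam had r of 0.33 with C1qa, 0.27 with C1qb and 0.37 with C1qc, and Cd68 0.20, 0.34 and 0.14. In log2 CPM over the 24 libraries, 7 of the 9 pairs of a chain with another member were positive. Of these 9 pairs, 0 had a permutation p of at most 0.05 for r. Without saline female 4, the library lowest in Itgam, r was 0.57 for C1qa with Itgam (permutation p = 0.00486) and 0.51 for C1qc with Itgam (permutation p = 0.0134). Without saline female 5 Cd68 had r of −0.02 with C1qa, 0.15 with C1qb and −0.32 with C1qc, and Itgam 0.12 with C1qb. The median r was 0.56 over the 3 chain pairs and 0.30 over all 15 pairs, where the median r of a member with all genes lay between −0.02 and 0.02.

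**Figure D5:**
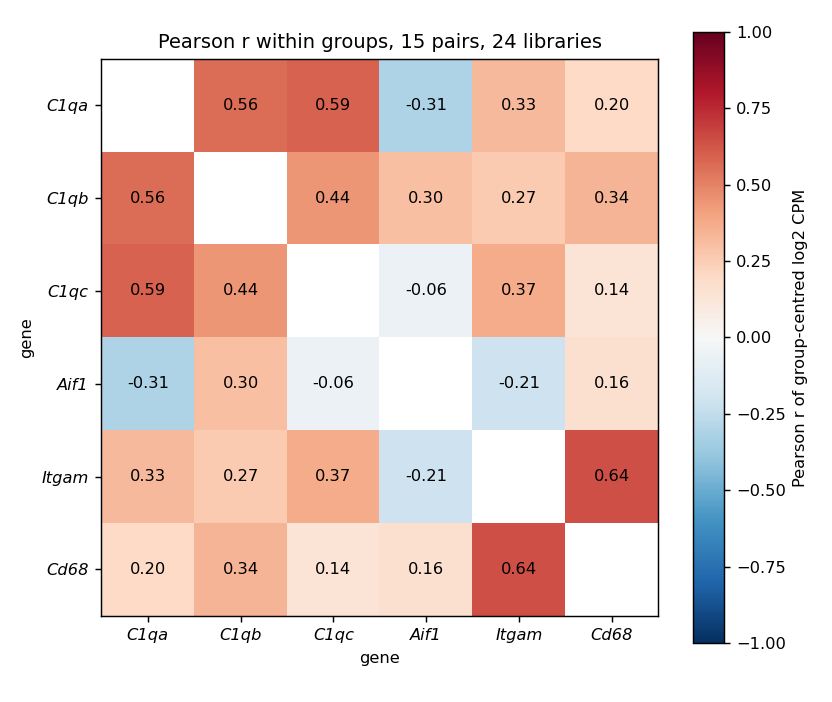
Pearson's r between the group-centred log2 CPM of each pair of the 6 genes over 24 libraries (rows and columns are genes, colour is r from −1 to 1, values printed in the cells). The 3 chain pairs (0.44 to 0.59) and Itgam with Cd68 (0.64) are the highest, and the Aif1 row runs from −0.31 to 0.30.

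Of the genes outside the members, those closest to the mean of the 3 chains over the 24 libraries were ENSRNOG00000060574 (r = 0.70, rho = 0.72, 0.626 TPM on average) and ENSRNOG00000007062 (r = 0.68, rho = 0.65, 2.18 TPM). Those most opposite were ENSRNOG00000004787 (r = −0.71, rho = −0.56, 5.74 TPM) and ENSRNOG00000052955 (r = −0.70, rho = −0.61, 17.7 TPM). They were picked as the extremes of 14924 genes, so no p is given. Itgam would rank 489th and Cd68 1663rd by the same measure. The genes could not be named, and lists of complement, microglial activation and cell type marker genes other than the 6 members were not tested for the same reason. The labelled tissue was therefore not checked against markers of neurons, astrocytes or vessels.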

How the data were processed

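Total RNA of the medial prefrontal cortex was sequenced in 24 libraries. The submitters' processing notes name the tools bcl2fastq and DRAGEN and the build Rnor_6.0. Versions, strand handling and gene annotation were not stated in the sources used here. Per the file headers, each deposited table holds gene length, effective length, TPM and estimated counts. The deposited estimated counts (7.42% to 8.38% of genes not whole) were rounded. The deposited TPM values served only for levels between genes, chain ratios and 1 alternative. Groups came from the sample labels.

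Counts were fitted with edgeR 4.0.16 (R 4.3.3): filterByExpr (minimum count 10, minimum total 15) kept 14930 genes and left out 17953, TMM factors were 0.971 to 1.03, and 1 mean per group was fitted over all libraries by robust quasi-likelihood. Calls were made at a false discovery rate of 0.05 (Benjamini-Hochberg, over all genes tested). Correlations used log2 CPM (prior count 2) with group means removed and two-sided permutation tests of 100000 resamples, or exact ones within groups of 6. The resamples shuffled libraries across groups, although groups differed in spread, and took no account of the removed means. Permutation p-values over all libraries are therefore approximate. limma 3.58.1 (trend) fitted every gene on group and the level of 1 member. A count of 0 allows 3 reads, 0.123 to 0.189 CPM by library; floors and counting errors cover counting only. The scripts were tested on simulated data. Alternatives were RLE factors, no or a stricter filter, length offsets, a replicate block, DESeq2 1.42.0, limma-voom with sample weights, 1 labelled sex alone, TPM, rank correlation, no centring, library total removed, and each library left out.

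The members and lists were chosen with earlier results of these data known. Named besides the members were the 2 genes of highest and the 2 of lowest correlation with the mean of the C1q chains.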

Additional observations from a re-analysis of the deposited data

Results flagged for a closer look

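In each group of 6 libraries, the highest and the lowest value of each member's CPM and of each chain ratio were compared with the next one, relative to the range of the group. Of 36 such sets, 3 had 1 library far from the other 5, where chance gives about 1.8. Cd68 stood at 3.46 CPM in saline female 5, with the next library at 1.09 CPM. Itgam stood at 6.37 CPM in saline male 6, with the next at 4.86 CPM. The log2 ratio of C1qa to C1qc stood at 1.19 in saline male 1, with the next at 0.95; this library had the lowest C1qc level of its group, at 11.9 CPM.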

How the results depend on the processing

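All 588 treatment log2 fold changes of the 6 members, over the 3 treatment comparisons and every setting run, were below 0. These are refits of largely the same libraries, and the average comparison is the mean of those in males and females. They are therefore not independent observations. How many of all genes kept the same sign over every setting was not computed. No member was called in labelled males, labelled females, the interaction or between labelled sexes under any alternative. On average over the labelled sexes 0 were called, 2 with DESeq2, and 0 to 2 with 1 library left out. Over all genes, the calls on average were 54 with edgeR, 350 with DESeq2, 190 with limma-voom and 9 (without saline male 2) to 334 (without saline female 2). In labelled males they were 24, 157 with DESeq2, 125 with limma-voom, 116 with that sex alone, 9 with the replicate block and 0 to 106 with 1 library left out. In labelled females they were 1, 45 with DESeq2, 0 with that sex alone and 1 to 6 with 1 library left out. Between labelled sexes they were 34, 102 with DESeq2, 70 with limma-voom and 29 to 60 with 1 library left out, and for the interaction 0, 2 with DESeq2 and 1 with the replicate block.

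Some directions turned. For Itgam the interaction was −0.094 with limma-voom and −0.11 to 0.24 with 1 library left out, and labelled male against female was 0.066 with limma-voom, 0.012 with the replicate block and −0.076 to 0.097 with 1 library left out. For C1qc the latter comparison ran from −0.051 to 0.011. The r of Aif1 with C1qc was 0.038 by rank, 0.094 without centring, 0.011 with the replicate block and −0.196 to 0.197 with 1 library left out. That of Aif1 with Cd68 was −0.00124 with library total removed, and that of C1qb with Itgam −0.089 without the 2 farthest libraries. With 1 library left out, C1qa with Cd68 ran from −0.023 to 0.336 and C1qc with Cd68 from −0.318 to 0.255. The median r over 15 pairs was 0.426 without centring and 0.233 to 0.338 with 1 library left out; that of the chains was 0.391 to 0.608 over all settings. The cause of these changes was not tested.

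Replicate numbers gave no clear pairing over all groups: of 36 same-numbered pairs, 3 had deviations with r above 0.1 (range −0.11 to 0.18) and 9 correlated best with their own number. In labelled females, oxytocin replicates 1, 2, 3 and 5 correlated best with the saline library of their number (r = 0.106, 0.086, 0.101 and 0.033). This was the pair of groups with the most such matches, and some matches arise by chance alone. How many chance gives was not computed, and whether the numbers pair animals there was not tested. With the replicate block 0 members were called in each comparison, C1qb averaged −0.21 (edgeR adjusted p = 0.0925) and Cd68 −0.70 (adjusted p = 0.0981). With the block, r was 0.59 for C1qc with Itgam (permutation p = 0.00222) and 0.43 for C1qa with Itgam (permutation p = 0.0349), against 0.37 and 0.33 without it. The counting error was widest for Cd68 (coefficient of variation 23.9%, 9 to 65 reads), and the share of within-group variance from counting was 36.1% for Cd68 and 41.1% for Aif1.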
